A study of Mus musculus with 4 samples.

Results

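The comparison described here asks what all-trans retinoic acid (ATRA) did to liver tumour-initiating stem-like cells that also received suberoylanilide hydroxamic acid (SAHA). It sets the library of cells given ATRA plus SAHA against the library of cells given SAHA alone, 2 of the 4 libraries of the study. The cells are a cultured population isolated from liver tumours of C57BL/6 mice, and the labels do not say whether the cultures came from 1 clone or 1 tumour. The cells were grown in medium with serum, EGF and dexamethasone, per the labels. The groups were ATRA plus SAHA (5 µg/ml and 0.5 µg/ml), SAHA (0.5 µg/ml), ATRA (5 µg/ml) and vehicle, and treatment lasted 16 hours. For the vehicle culture no time was stated in the labels. Total RNA was depleted of ribosomal RNA and sequenced. With 1 library per group, differences could not be checked against replicates, and they are described by size with neither p-values nor errors. Levels are FPKM, in which the fragments of a transcript are divided by its length and by the fragments of the library. Of the 23359 genes in the table, the 8616 whose 4 libraries averaged 1 FPKM or more were compared. Genes count as higher or lower here from a difference of 1 in log2(FPKM + 1), 2-fold on a scale that understates the difference of low genes.

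ATRA is the form of vitamin A that binds retinoic acid receptors, which sit on target genes and switch from repression to activation when ligand arrives. SAHA, also called vorinostat, inhibits histone deacetylases and so raises histone acetylation and changes the expression of many genes, often with an arrest of the cell cycle. The unfolded protein response answers protein overload in the endoplasmic reticulum (ER) through the sensors PERK, IRE1 and ATF6. PERK, like other kinases that respond to stress such as amino acid shortage, raises the factor ATF4, which in turn induces CHOP, the protein of the gene Ddit3.

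The promoters of ER chaperones carry a known ER stress response element, CCAAT and CCACG separated by 9 bases. In RefSeq promoters of build GRCm38.p6, from 250 bases before to 50 after the start site, 6320 of the counted genes had a sequence. On either strand 9 of the 6320 (0.142%) held this element. Among them were 7 of 16 ER chaperone and folding enzyme genes (43.8%) and 1 of 12 ER-associated degradation genes. In the list of unfolded protein response sensors and factors 0 of 15 genes held it. Past the 2-fold mark, 1 of 106 higher and 0 of 44 lower genes held it. The sites are printed for the chaperone genes because the same element stands before genes with quite different values in these libraries. Capitals mark both ends of the element, the coordinates span the element without the 5 flanking bases on each side, and the position is that of its base farthest upstream, counted from the start site.
Hspa5 (chr2:34772025-34772043, plus strand, position -65): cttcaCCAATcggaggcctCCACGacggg
Hsp90b1, first site (chr10:86705533-86705551, plus strand, position -107): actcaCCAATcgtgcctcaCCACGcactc
Hsp90b1, second site (chr10:86705638-86705656, minus strand, position -212): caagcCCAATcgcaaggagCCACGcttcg
Creld2 (chr15:88819520-88819538, minus strand, position -126): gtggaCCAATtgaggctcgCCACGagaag
Pdia6 (chr12:17266491-17266509, plus strand, position -98): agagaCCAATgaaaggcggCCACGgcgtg
Canx (chr11:50325800-50325818, minus strand, position -145): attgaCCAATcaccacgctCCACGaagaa
Dnajc3 (chr14:118937827-118937845, plus strand, position -105): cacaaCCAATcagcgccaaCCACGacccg
Calr (chr8:84847075-84847093, plus strand, position -162): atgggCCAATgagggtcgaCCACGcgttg

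The composite element of ATF4 and C/EBP factors was searched as TGATGNAAT on both strands. It stood in 32 of the 6320 promoters (0.506%), in 2 of 23 amino acid response genes (8.70%) and in 3 of 12 cytosolic aminoacyl-tRNA synthetase genes (25.0%). Other lists held it too, with 1 of 5 retinoic acid target and metabolism genes and 1 of 8 retinoic acid receptor and partner genes. Of the genes past the 2-fold mark, 1 of 106 higher and 1 of 44 lower genes held it. It is shown for Nupr1, one of the 15 highest genes of the comparison, and for the other matches in these lists, with the element in capitals.
Nupr1 (chr7:126625573-126625581, plus strand, position -111): ctgtcTGATGCAATctggc
Pycr1 (chr11:120643843-120643851, minus strand, position -103): gtgtaTGATGCAATgcaca
Aars (chr8:111033729-111033737, minus strand, position -113): tcggcTGATGCAATgctca
Gars (chr6:55037970-55037978, minus strand, position -31): gtgcaTGATGAAATagcgc
Iars (chr13:49682136-49682144, minus strand, position 7): ggaggTGATGCAATactga
Another motif, TGACGTGG, which ATF6 and XBP1 can bind and which reads CCACG on its other strand, stood in 72 promoters (1.14%), with 1 of 16 chaperone genes and 1 of 15 genes of the unfolded protein response sensor and factor list. Of the genes past the 2-fold mark, 0 of 106 higher and 2 of 44 lower genes held that motif.

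The SAHA library stood apart in composition. Depth was judged by the smallest steps between low values. Each FPKM per kilobase corresponded to about 102 fragments with ATRA plus SAHA, 98.8 with SAHA, 105 with ATRA and 99.3 with vehicle. Depths were thus close by this measure, which cannot tell depth from any scaling between libraries in the deposited FPKM. The row Gm20594, a short transcript, held 10.3% of all FPKM with ATRA plus SAHA and 33.9% with SAHA, beside 16.6% with ATRA and 18% with vehicle. The ribosomal RNA precursor row Rn45s was at 258 FPKM with ATRA plus SAHA and 251 with SAHA, and the small RNA row Rn4.5s was at 456 and 1080 FPKM in the same libraries. These rows were chosen after their values were seen, and the part of this difference in composition in the results below was not tested. The labelled tissue is liver, but 0 of 25 hepatocyte genes reached a mean of 1 FPKM, and their summed level was 1.20 FPKM with ATRA plus SAHA and 1.18 with SAHA. Markers of other cells were few: 0 of 14 lymphocyte genes and 0 of 7 erythroid genes reached that mean, 1 of 16 macrophage genes did (Cd68) and 2 of 14 endothelial genes did (Egfl7 and Flt1). In a bulk library, fewer cells of a type and less RNA per cell cannot be told apart.

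Genes that report on each compound checked the labels. Dhrs3, a retinaldehyde reductase gene that retinoic acid induces, was at 0.153 FPKM with ATRA plus SAHA and 0.119 with SAHA, beside 15.5 with ATRA and 0.0780 with vehicle. Tgm2, the tissue transglutaminase gene and a retinoid target, was at 4.45 FPKM with ATRA plus SAHA and 3.0 with SAHA, beside 14.7 with ATRA and 3.98 with vehicle. Both were thus high in the ATRA library and close to SAHA alone in the library labelled ATRA plus SAHA. Rarb, the retinoic acid receptor beta gene, was at 0.367 FPKM with ATRA plus SAHA and 0.344 with SAHA, beside 1.11 with ATRA and 0.747 with vehicle. Cyp26b1, which encodes a retinoic acid-degrading enzyme, was at 0.0839 and 0.0657 FPKM in the libraries with SAHA, beside 0.377 with ATRA and 0.0265 with vehicle, and Cyp26a1 was below 0.05 FPKM in all 4. H1f0, the linker histone gene that deacetylase inhibitors induce, was at 164 FPKM with ATRA plus SAHA and 126 with SAHA, beside 26.4 with ATRA and 30.2 with vehicle. Ccnd1, the cyclin D1 gene, was at 0.723 FPKM with ATRA plus SAHA and 0.674 with SAHA, beside 45.3 with ATRA and 37.0 with vehicle. Cdkn1a, the gene of the cell-cycle inhibitor p21, differed little, at 3.58 FPKM with ATRA plus SAHA and 3.95 with SAHA. The SAHA markers H1f0 and Ccnd1 were thus alike in both libraries that had SAHA, whereas none of the retinoid targets named passed the 2-fold mark between them. Rarb, Cyp26b1 and Cyp26a1 did not pass that mark between ATRA and vehicle either. At their low levels FPKM + 1 leaves little room for a 2-fold difference. Cyp26b1 was higher with ATRA than with vehicle, at 0.377 and 0.0265 FPKM. The check by the 2-fold mark therefore rests on Dhrs3 and Tgm2. These targets therefore do not show ATRA in the library called ATRA plus SAHA. The presence of ATRA there is taken from the label, and so is every direction given below.

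Of the 8616 counted genes, 262 (3.04%) were higher with ATRA plus SAHA than with SAHA and 80 (0.929%) were lower. The median log2 difference over all of them was 0.14. Higher genes made up 76.6% of the calls, 63.2% (191 higher, 111 lower) after the differences were centred on their median, and 24.1% (126 higher, 397 lower) after each library was rescaled to the same total without the 10 highest rows of any library. That rescaling moved the median of all genes to -0.32, because the remaining FPKM summed to 161043 with ATRA plus SAHA and 102678 with SAHA. The balance of higher and lower genes therefore depends on the scaling, and the lists below are best read against the all-gene median. Among the higher genes 51 were small RNAs and 61 were clustered histone genes, which left 150 others. Among the lower genes 21 were small RNAs. The 150 other higher genes had median levels of 7.58 FPKM with ATRA plus SAHA and 2.33 with SAHA, beside 5.42 with ATRA and 5.37 with vehicle. The 59 lower genes that were not small RNAs had median levels of 3.12 and 9.11 FPKM, beside 6.86 and 6.38.

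**Figure D1:**
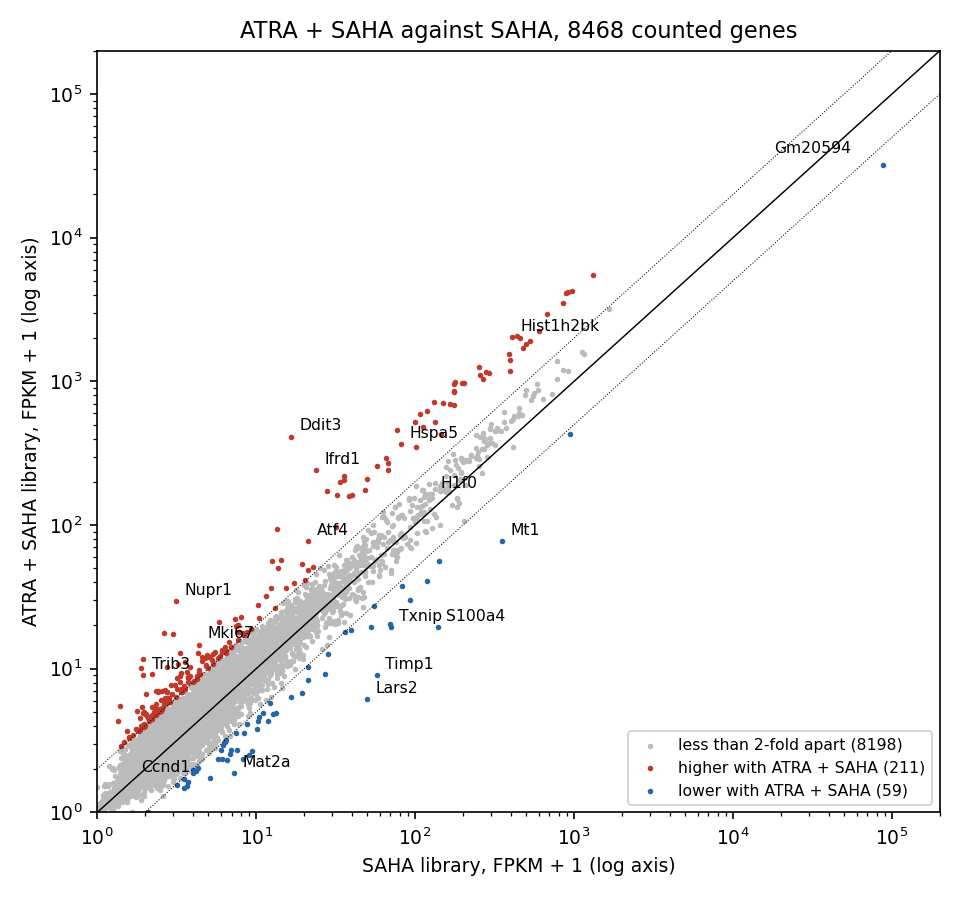
Each point is 1 of the 8468 counted genes that are not small RNAs, with its FPKM + 1 in the SAHA library on the x axis and in the ATRA plus SAHA library on the y axis, both log axes. The solid line marks equal values and the dotted lines a 2-fold difference; 211 genes lie above the band and 59 below it, with Ddit3 farthest above and Lars2 farthest below.

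Stress genes led the higher side. Ddit3, which encodes CHOP, a transcription factor that promotes cell death under lasting ER stress, was at 411 FPKM with ATRA plus SAHA and 15.6 with SAHA, beside 8.34 with ATRA and 25.4 with vehicle. The gene lies on the plus strand at chr10:127290774-127296288 (GENCODE M21, mm10). The ATRA plus SAHA library was far above the other three, and the ratio to SAHA was 26.4 (log2 difference 4.64). Ddit3 shares its locus in the table with Mars, the methionyl-tRNA synthetase gene, which was at 2.91 FPKM with ATRA plus SAHA and 3.37 with SAHA. Ifrd1, which encodes an interferon-related developmental regulator, was at 239 FPKM with ATRA plus SAHA and 22.7 with SAHA, beside 17.4 with ATRA and 31.5 with vehicle, a ratio to SAHA of 10.5; it lies on the minus strand at chr12:40201567-40248504. Hspa5, which encodes the main ER chaperone BiP, was at 367 FPKM with ATRA plus SAHA and 81.0 with SAHA, beside 63.6 with ATRA and 47.1 with vehicle. These 3 genes were higher with ATRA plus SAHA than in any other library, and under the rescaling their log2 differences to SAHA were 4.01, 2.71 and 1.52.

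The other leading stress genes did not share 1 pattern. Atf4 itself was at 76.6 FPKM with ATRA plus SAHA and 20.3 with SAHA, beside 92.3 with ATRA and 103 with vehicle. Nupr1, a small nuclear regulator that many stresses induce, was at 28.5 FPKM with ATRA plus SAHA and 2.14 with SAHA, beside 86.5 with ATRA and 58.5 with vehicle. Trib3, a pseudokinase gene downstream of ATF4 and CHOP, was at 8.03 FPKM with ATRA plus SAHA and 0.946 with SAHA, beside 7.84 with ATRA and 11.7 with vehicle. For these 3 genes SAHA was the lowest library, and ATRA plus SAHA was below vehicle. Gadd45a, a growth arrest and DNA damage gene, was at 9.06 FPKM with ATRA plus SAHA and 0.876 with SAHA, beside 7.12 with ATRA and 8.38 with vehicle. GADD34, the phosphatase subunit that reverses the PERK signal, is the product of Ppp1r15a, which was at 12 FPKM with ATRA plus SAHA and 2.32 with SAHA, beside 5.56 with ATRA and 27.0 with vehicle. Its level with ATRA plus SAHA lay between those of ATRA and vehicle. Atf3, another stress-induced factor of this family, was at 8.49 FPKM with ATRA plus SAHA and 3.36 with SAHA, beside 0.905 with ATRA and 3.19 with vehicle. Atf3 and, by a small margin over vehicle, Gadd45a were thus highest with ATRA plus SAHA.

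**Figure D2:**
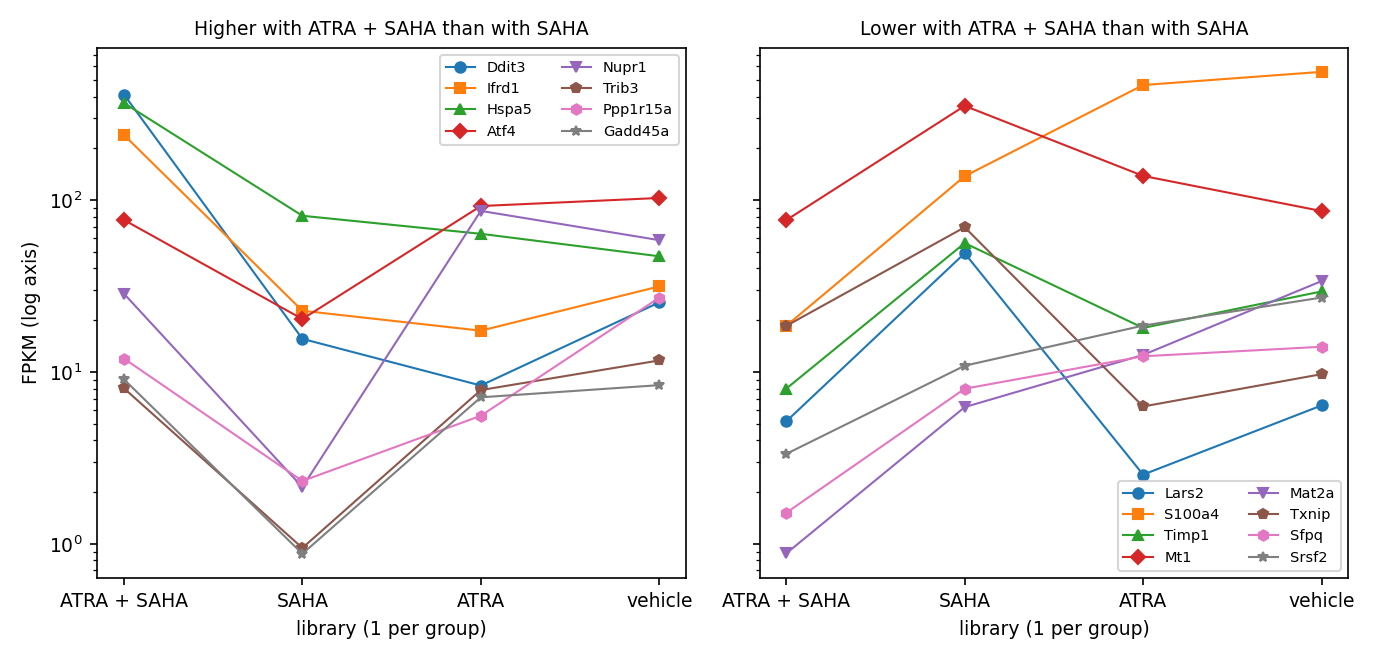
FPKM (log axis) of 8 genes higher with ATRA plus SAHA than with SAHA (left panel) and 8 genes lower (right panel) in the 4 libraries, 1 library per group, with lines only to guide the eye. Ddit3, Ifrd1 and Hspa5 peak in the ATRA plus SAHA library, at 411, 239 and 367 FPKM, whereas S100a4, Sfpq, Mat2a and Srsf2 have their lowest values there.

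Genes of the unfolded protein response differed among themselves, and the activity of its branches was not measured. Of 17 counted sensors and factors, 5 were higher (Ddit3, Trib3, Ppp1r15a, Atf4 and Atf3) and 0 were lower, with a median log2 difference of 0.35, which became -0.14 under the rescaling without the highest rows while the median of all genes was -0.32. The genes of the sensors themselves differed little. Ern1, which encodes IRE1, was at 1.89 FPKM with ATRA plus SAHA and 1.82 with SAHA, Eif2ak3, which encodes PERK, was at 2.01 and 1.71, and Atf6 was at 11.8 and 8.40; these, and the chaperone genes whose sites are printed above, are named because of their roles or sites, after their values were seen. Xbp1, whose RNA IRE1 splices, was at 2.56 FPKM with ATRA plus SAHA and 1.79 with SAHA, beside 10.4 with ATRA and 9.40 with vehicle.

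Among 22 counted ER chaperones and folding enzymes 2 were higher, Hspa5 and Sdf2l1, and 0 were lower. Their median was 0.28, against 0.14 for all genes, and turned to -0.27 under the rescaling, against -0.32, with Hspa5 still past the mark and Sdf2l1 not. Sdf2l1, an ER chaperone partner, was at 16.3 FPKM with ATRA plus SAHA and 7.33 with SAHA, beside 5.26 with ATRA and 3.77 with vehicle. The genes that share the ER stress response element printed above spread widely around these values. Hspa5 stood at a log2 difference of 2.17, Hsp90b1, the ER HSP90 gene, at 0.77, Creld2 at 0.49, Pdia6, a disulfide isomerase gene, at 0.46 and Canx, the calnexin gene, at 0.37. Dnajc3, a BiP cochaperone and PERK inhibitor, stood at -0.22 and Calr, the calreticulin gene, at -0.43. Calr was at 74.5 FPKM with ATRA plus SAHA and 101 with SAHA, beside 37.4 with ATRA and 27.3 with vehicle. Thus only 1 of the 7 chaperone genes with the element passed the 2-fold mark. In ER-associated degradation, which clears misfolded proteins, Herpud1 was the 1 higher gene of 15 (5.65 FPKM with ATRA plus SAHA and 1.04 with SAHA, beside 10.1 with ATRA and 10.9 with vehicle), 0 were lower and the median was 0.19.

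Amino acid response genes that ATF4 is known to drive stood above the all-gene median. Of 27 counted members 8 were higher and 0 lower, with a median of 0.55, or 0.04 with 2 higher under the rescaling. Their median level was 6.23 FPKM with ATRA plus SAHA and 3.17 with SAHA, beside 12.8 with ATRA and 13.1 with vehicle. SAHA was thus the lowest library, and ATRA plus SAHA stayed below ATRA and vehicle. Besides Nupr1 and Trib3, Got1, the cytosolic aspartate aminotransferase gene, was at 26.6 FPKM with ATRA plus SAHA and 9.28 with SAHA, beside 11.9 with ATRA and 13.1 with vehicle. Chac1, a glutathione-degrading enzyme gene, was at 6.11 FPKM with ATRA plus SAHA and 1.68 with SAHA, beside 9.05 with ATRA and 12.3 with vehicle. Of these, Got1 had its highest level with ATRA plus SAHA, and Chac1 was below vehicle. Slc1a4, a neutral amino acid transporter gene, stood at 1.26 and Mthfd2, a mitochondrial folate enzyme gene, at 1.10. Mthfd2 was at 6.23 FPKM with ATRA plus SAHA and 2.38 with SAHA, beside 22.2 with ATRA and 24.2 with vehicle. None of the 20 cytosolic aminoacyl-tRNA synthetases passed the mark, but 18 were above 0, with a median of 0.42 that turned to -0.19 under the rescaling. The synthetase genes whose ATF4 element is printed above stood at 0.80 (Aars), 0.76 (Gars) and 0.05 (Iars). Pycr1, a proline synthesis gene with the same element, stood at 0.15, and Nupr1 at 3.23.

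Replication-dependent histone genes, which are transcribed in S phase to package new DNA, were the largest higher group. Of 64 counted members 60 were higher and 0 lower, with a median log2 difference of 2.08, 1.93 after centring and 1.43 under the rescaling. Their median level was 608 FPKM with ATRA plus SAHA and 139 with SAHA, beside 646 with ATRA and 580 with vehicle. SAHA was the library that stood apart. The core and linker classes moved alike: the median difference was 2.04 for 5 H1 genes, 2.46 for 17 H2A genes, 1.85 for 17 H2B genes, 2.09 for 12 H3 genes and 2.08 for 13 H4 genes. Summed over the 64 genes, the level was 64017 FPKM with ATRA plus SAHA and 15011 with SAHA, beside 61330 with ATRA and 49763 with vehicle. The 4 members below the mark were Hist2h2bb, Hist3h2ba, Hist3h2bb-ps and Hist2h2aa2, and Hist2h2aa2 was at 2.41 FPKM with ATRA plus SAHA and 3.92 with SAHA. Because the paralogs are almost the same in sequence, how reads were divided among single members is uncertain. Hist1h2ap, at 93.1 FPKM with ATRA plus SAHA and 12.6 with SAHA, was listed at 0 in the other libraries and shares its locus with Hist1h2ao. Hist1h2af, at 217 FPKM with ATRA plus SAHA and 34.9 with SAHA, and Hist2h2ac, at 455 and 75.7 FPKM, were also among the 15 highest genes.

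**Figure D3:**
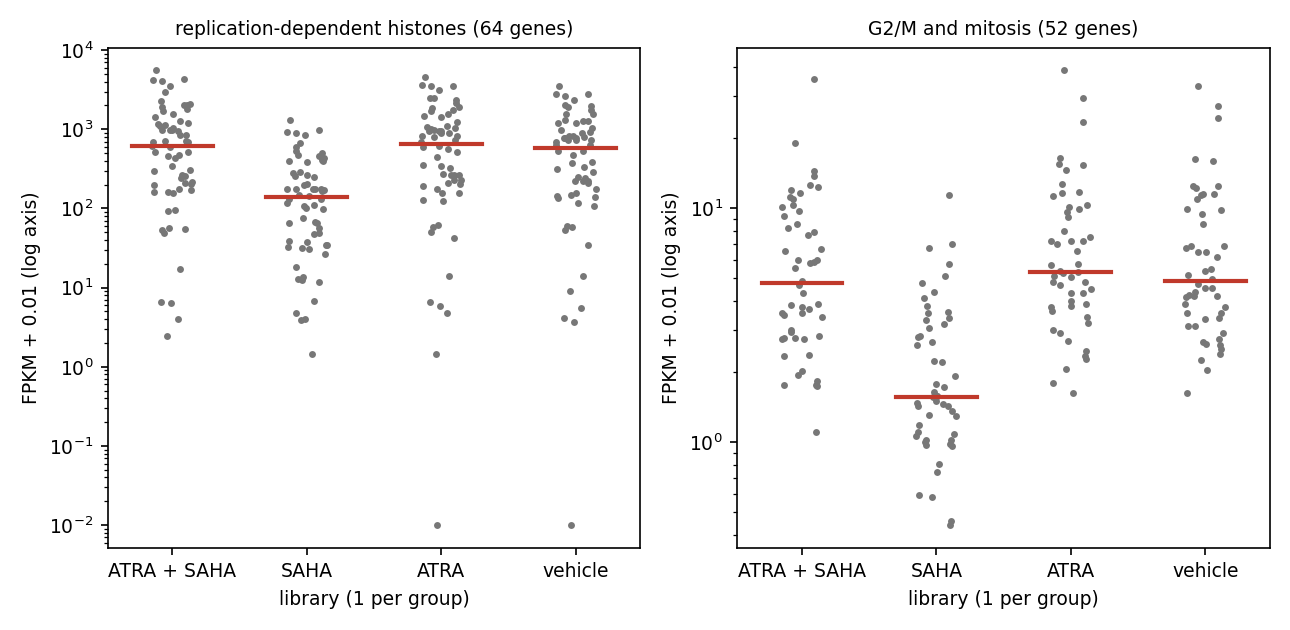
FPKM + 0.01 (log axis) of the 64 counted replication-dependent histone genes (left) and the 52 G2/M and mitosis genes (right) in each library; points are genes and red lines are medians. In both panels the SAHA library is lowest, with medians of 139 and 1.56 FPKM, against 608 and 4.77 with ATRA plus SAHA.

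Genes of mitosis were also at their lowest median level in the SAHA library. In the G2/M and mitosis list, with 52 counted genes, 29 were higher, 0 were lower and all lay above the all-gene median. Their median difference was 1.05, 0.90 after centring (21 higher) and 0.62 under the rescaling (7 higher). The median level was 4.77 FPKM with ATRA plus SAHA and 1.56 with SAHA, beside 5.35 with ATRA and 4.86 with vehicle. Mki67, the proliferation marker Ki-67, was at 13.7 FPKM with ATRA plus SAHA and 3.39 with SAHA, beside 23.4 with ATRA and 27.2 with vehicle. Mki67 thus stayed below the ATRA and vehicle libraries. Top2a, the topoisomerase of chromosome segregation, was at 35.6 FPKM with ATRA plus SAHA and 11.4 with SAHA, beside 29.5 with ATRA and 24.2 with vehicle. Hmmr, a spindle protein gene, was at 9.74 FPKM with ATRA plus SAHA and 2.22 with SAHA, beside 9.17 with ATRA and 8.53 with vehicle. Unlike Mki67, Top2a and Hmmr had their highest levels with ATRA plus SAHA. Tpx2, a spindle assembly factor, stood at 1.63, Smc4, a condensin subunit, at 1.59 and Incenp, of the chromosomal passenger complex, at 1.57.

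The short motif TTTGAA, the core of the cell-cycle genes homology region through which mitosis genes are silenced outside G2 and M, was searched after the values were seen. On either strand it stood in 32 of the 44 mitosis genes with a promoter sequence (72.7%) and in 861 of the 6320 counted genes (13.6%). It is shown for the leading mitosis genes, with the motif in capitals.
Mki67, first site (chr7:135716472-135716477, minus strand, position -98): tttggTTTGAAtcggg
Mki67, second site (chr7:135716490-135716495, minus strand, position -116): cagaaTTTGAAccgcc
Hmmr (chr11:40733424-40733429, minus strand, position 9): gtaaaTTTGAAttcag
Top2a, first site (chr11:99024207-99024212, plus strand, position -23): tttcaTTTGAAccttt
Top2a, second site (chr11:99024363-99024368, minus strand, position -179): tccatTTTGAAgattc

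Genes of DNA replication were higher by less. Of 43 counted G1/S and replication genes 3 were higher, Pold2 (a DNA polymerase delta subunit, 1.35), Orc6 (origin recognition, 1.21) and Cdc45 (replicative helicase, 1.12), and 0 were lower. Their median was 0.57, and 0.07 with 0 higher under the rescaling. Orc6 was at 16.9 FPKM with ATRA plus SAHA and 6.74 with SAHA, beside 7.19 with ATRA and 6.96 with vehicle. Regulators of the G1 phase did not follow. Of 13 counted members 0 passed the mark and the median was 0.04, with Cdk4, the partner kinase of cyclin D, at 14.7 FPKM with ATRA plus SAHA and 11.3 with SAHA and with Ccnd1 as low as given above. Replacement histone genes, which are transcribed outside S phase, had 1 higher (H2afx, 1.01) and 1 lower (H3f3a, -1.01) of 11, with a median of 0.20.

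Ribosome genes stood slightly above the all-gene median. None of 78 cytosolic ribosomal protein genes passed the mark, 76 were above 0, and the median of 0.46 turned to -0.18 under the rescaling. Of 41 ribosome biogenesis genes 2 were higher, Tcof1 (1.12) and Rrp9 (1.05), with a median of 0.45 that became -0.04 under the rescaling. Long noncoding RNAs went both ways. The host genes of small nucleolar RNAs Snhg5, Snhg12 and Snhg1 were at 16.5, 8.24 and 3.30 FPKM with ATRA plus SAHA and 1.99, 1.20 and 0.345 with SAHA. Malat1, an abundant nuclear RNA, was at 55.6 FPKM with ATRA plus SAHA and 141 with SAHA, beside 25.9 with ATRA and 36 with vehicle. Neat1, the scaffold RNA of paraspeckles, was at 2.12 FPKM with ATRA plus SAHA and 5.35 with SAHA. Of the 13 counted RNAs in this list 3 were higher and 2 lower.

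The lowest gene was Lars2, which encodes the mitochondrial leucyl-tRNA synthetase. It was at 5.16 FPKM with ATRA plus SAHA and 49.0 with SAHA, beside 2.53 with ATRA and 6.38 with vehicle (log2 difference -3.02), and it lies on the plus strand at chr9:123366927-123462666. The SAHA library alone was high, as it was for the row Gm20594 (31801 FPKM with ATRA plus SAHA and 87588 with SAHA), and whether the difference in Lars2 belongs with that composition was not tested. No other of the 11 counted mitochondrial synthetase genes passed the mark, and the median was 0.15. Mt1, a metallothionein gene that binds zinc and copper, was at 76.4 FPKM with ATRA plus SAHA and 353 with SAHA, beside 138 with ATRA and 86.3 with vehicle. Its relatives Mt2 and Mt4 stood at -0.94 and -0.71, in a list chosen after the values were seen. Txnip, the thioredoxin-interacting protein gene that deacetylase inhibitors often raise, was at 18.5 FPKM with ATRA plus SAHA and 69.5 with SAHA, beside 6.30 with ATRA and 9.71 with vehicle. Of 18 counted genes that such inhibitors raise elsewhere 0 were higher and 2 lower (Txnip and Mt1), with a median of -0.25.

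S100 genes, which encode small calcium-binding proteins, were lower as a group. Of 6 counted members 4 were lower, 0 higher and the median was -1.35, -1.49 after centring, -1.92 under the rescaling and -0.48 with the 4 low members included. S100a4, which is linked to cell motility and metastasis, was at 18.6 FPKM with ATRA plus SAHA and 138 with SAHA, beside 467 with ATRA and 557 with vehicle; it lies on the plus strand at chr3:90603771-90606045. S100a6 was at 39.9 FPKM with ATRA plus SAHA and 119 with SAHA, beside 259 with ATRA and 318 with vehicle. S100a11 was at 19.4 FPKM with ATRA plus SAHA and 68.7 with SAHA, beside 72.2 with ATRA and 104 with vehicle. All 3 were lowest with ATRA plus SAHA. S100a10 went the other way at 0.42.

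Genes of the matrix and the cell surface were also among the lowest. Timp1, an inhibitor of matrix metalloproteases, was at 8.0 FPKM with ATRA plus SAHA and 56.2 with SAHA, beside 18 with ATRA and 29.4 with vehicle. It lies on the plus strand at chrX:20870166-20874735, and its locus in the table is shared with Araf, which was at 4.19 and 4.57 FPKM in the 2 libraries with SAHA. Of 19 counted matrix proteases and inhibitors 3 were lower (Timp1, Ctgf and Spp1) and 0 higher, with a median of -0.36, -0.75 under the rescaling and -0.04 without the filter on low values. Ctgf, a target of TGF-beta and YAP, was at 5.38 FPKM with ATRA plus SAHA and 15.6 with SAHA, beside 3.37 with ATRA and 4.70 with vehicle. Spp1, the osteopontin gene, was at 433 FPKM with ATRA plus SAHA and 939 with SAHA, beside 566 with ATRA and 336 with vehicle. Timp1 was thus below all other libraries, whereas Ctgf and Spp1 were above vehicle. Of 21 matrix protein genes 1 was higher, Serpinh1, the collagen chaperone gene (1.14), and 1 was lower, Nid1, the nidogen gene of basement membranes (-1.41). Itga3, an integrin gene, F2rl1, a protease-activated receptor gene, Stim2, an ER calcium sensor gene, and Prx, the periaxin gene, stood between -1.47 and -1.81.

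Mat2a, Sfpq and 2 SR splicing factor genes were also among the lower genes. Mat2a, which encodes the enzyme that makes S-adenosylmethionine, was at 0.880 FPKM with ATRA plus SAHA and 6.24 with SAHA, beside 12.6 with ATRA and 33.8 with vehicle. Sfpq, a splicing and paraspeckle protein gene, was at 1.52 FPKM with ATRA plus SAHA and 7.99 with SAHA, beside 12.3 with ATRA and 14.0 with vehicle. Srsf2 and Srsf1, SR splicing factor genes, were at 3.34 and 1.54 FPKM with ATRA plus SAHA and 10.9 and 5.81 with SAHA. These 4 genes were lowest with ATRA plus SAHA and highest with vehicle. The SR list was chosen after the values were seen: of its 10 counted members 2 were lower (4 under the rescaling), 0 higher and the median was -0.16, and Srsf11 stood at 0.78. Uqcrh, a subunit of respiratory complex III, was the 1 lower gene of 57 in the respiratory chain list, at 28.9 FPKM with ATRA plus SAHA and 91.9 with SAHA, and the list's median was 0.14, as for all genes to 2 decimals.

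**Figure D4:**
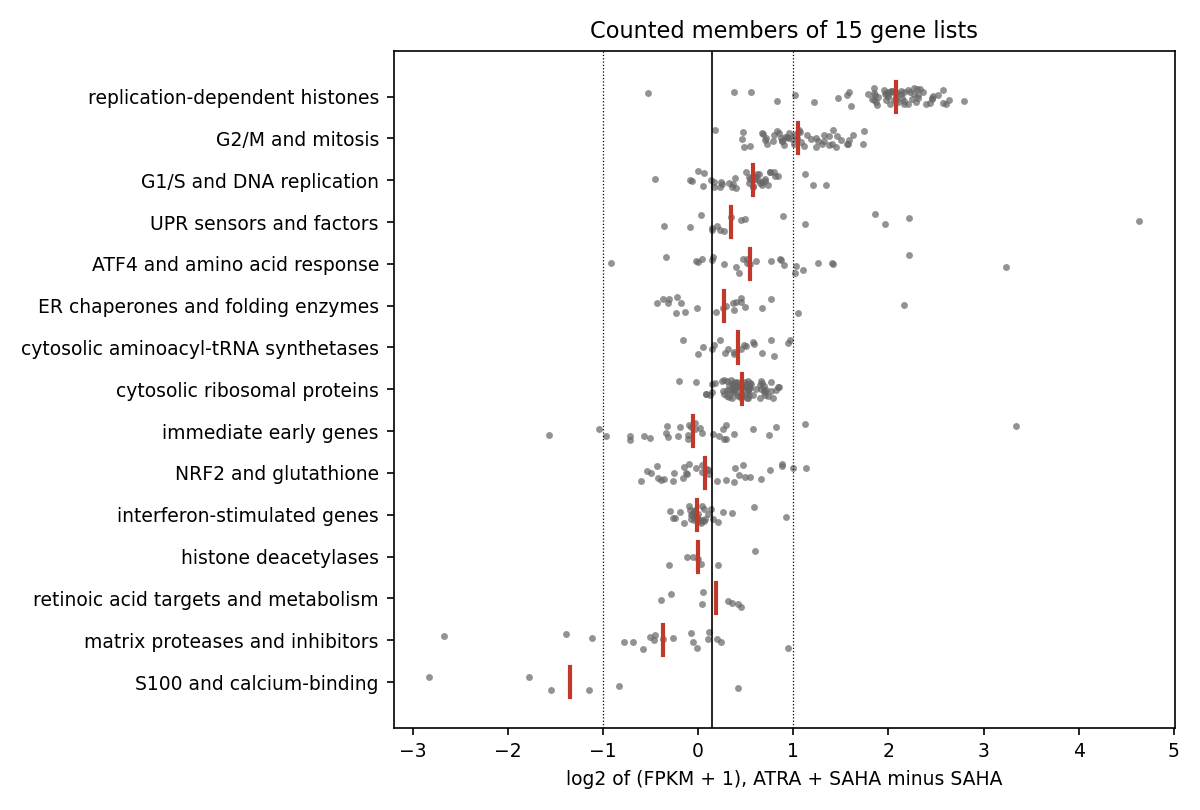
The log2 difference of (FPKM + 1), ATRA plus SAHA minus SAHA, for the counted members of 15 gene lists; points are genes, red bars list medians, the solid line the all-gene median of 0.14 and the dotted lines the 2-fold mark. Replication-dependent histones (median 2.08) and mitosis genes (1.05) lie to the right, and S100 genes (-1.35) to the left.

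ATRA against vehicle, a pair that shares no library with the pair above, compares the cultures without SAHA, 1 library a side. There 79 genes (0.917%) were higher and 103 (1.20%) lower, or 43 and 76 without small RNAs. Of the 43 genes higher with ATRA alone, 1 was higher with ATRA plus SAHA than with SAHA (Igfbp4) and 1 was lower (Csn3); these and the genes named next were chosen after their values were seen. Their median difference was 0.15, against 0.14 for all genes, and 27 of them were at 1 FPKM or more in a library with SAHA. Of all 8468 genes that are not small RNAs, 211 were higher and 59 lower with ATRA plus SAHA than with SAHA. Igfbp4, an IGF-binding protein gene, was at 9.34 FPKM with ATRA plus SAHA and 1.76 with SAHA, beside 118 with ATRA and 56.1 with vehicle. Aldh3a1, an aldehyde dehydrogenase gene, was at 2.62 FPKM with ATRA plus SAHA and 1.55 with SAHA, beside 29.7 with ATRA and 2.42 with vehicle. Id2, an inhibitor of differentiation gene, was at 3.92 FPKM with ATRA plus SAHA and 5.95 with SAHA, beside 21.1 with ATRA and 3.44 with vehicle. Genes raised by ATRA alone were thus as a group close to the all-gene median in the main setting. The rest of the 43 were below 1 FPKM in both libraries with SAHA, where FPKM + 1 leaves little room for a difference. When the filter was raised to 5 FPKM, 25 genes stayed in the group, with a median of 0.46 against 0.24 for all genes. Under the rescaling the medians were -0.17 and -0.32. The position of the group relative to all genes therefore depends on the setting. Across the 8468 genes that are not small RNAs, the 2 differences had a Pearson correlation of 0.11 and a Spearman correlation of 0.14, a description across genes within single libraries.

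Genes lower with ATRA alone were mostly low already in both libraries with SAHA. Of the 76, 5 were higher and 5 lower with ATRA plus SAHA than with SAHA, 22 were at 1 FPKM or more in either, and the median difference was 0.00. Of all 8468 genes that are not small RNAs, 211 were higher and 59 lower in that pair. Both shares were thus larger among the 76, though on 5 genes each. The 5 lower genes, low in both pairs, were Lars2, Mat2a, F2rl1, Nppb and Gm21312. Interferon-stimulated genes made up part of them: 21 of 34 were lower with ATRA alone, with a median of -1.17, and 0 of 34 passed the mark with ATRA plus SAHA against SAHA, with a median of -0.01. Their median level was 0.365 FPKM with ATRA plus SAHA and 0.347 with SAHA, beside 2.78 with ATRA and 7.48 with vehicle. At such low levels FPKM + 1 leaves little room for a 2-fold difference. The 0 of 34 therefore does not show that ATRA left these genes unchanged once SAHA was present. With a pseudocount of 0.1, 0 were higher and 2 lower. NRF2 and glutathione genes had 4 of 34 higher with ATRA alone and a median of 0.52. With ATRA plus SAHA against SAHA 2 were higher, Hmox1, the heme oxygenase gene (1.14), and Abcc1, a glutathione conjugate exporter (1.0), with a median of 0.07. Nqo1, a quinone reductase gene, was at 6.4 FPKM with ATRA plus SAHA and 3.39 with SAHA, beside 16.4 with ATRA and 6.11 with vehicle. Whether these differences between the pairs exceed the spread of replicates was not tested.

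**Figure D5:**
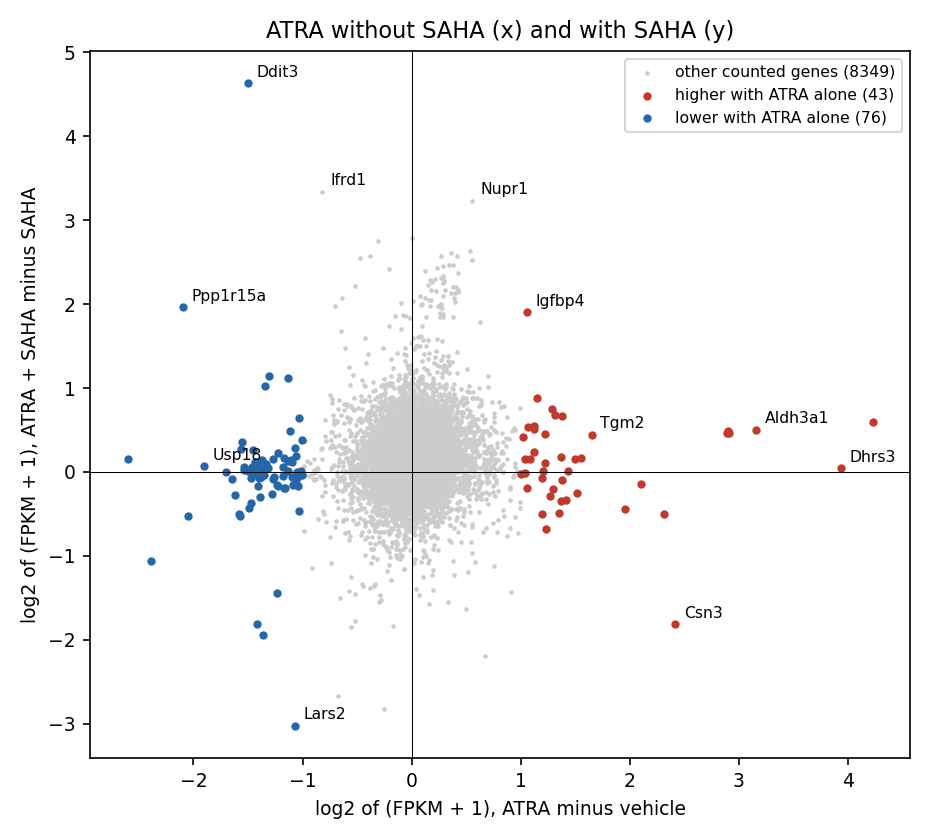
The log2 difference of (FPKM + 1) for ATRA minus vehicle (x axis) and for ATRA plus SAHA minus SAHA (y axis) for 8468 counted genes. Red points are the 43 genes higher and blue points the 76 genes lower with ATRA alone; Dhrs3 lies at 3.94 on the x axis and 0.04 on the y axis, and Ddit3 at -1.50 and 4.64.

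The retinoid system itself changed little. None of 10 counted retinoic acid receptor and partner genes and none of 8 counted targets and metabolism genes passed the mark, with medians of 0.17 and 0.19. Rarg, the receptor gamma gene, was at 2.97 FPKM with ATRA plus SAHA and 2.0 with SAHA, beside 14.2 with ATRA and 8.76 with vehicle. Crabp1, a retinoic acid-binding protein gene, was at 31.9 FPKM with ATRA plus SAHA and 21.9 with SAHA, beside 70.5 with ATRA and 85.4 with vehicle. Both were lower in the 2 libraries with SAHA than in the 2 without. None of 7 histone deacetylase genes passed the mark, with Hdac4 highest at 0.60 and Hdac1 lowest at -0.31.

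Markers of tumour-initiating and stem cells differed by less than 2-fold as deposited. None of 20 counted members passed the mark, though 2 were lower under the rescaling. The median was 0.00, below that of all genes, and -0.44 under the rescaling. Cd44, a hyaluronan receptor used to sort tumour stem cells, was at 21 FPKM with ATRA plus SAHA and 31.5 with SAHA, beside 42.2 with ATRA and 61.8 with vehicle. Cd34, a progenitor antigen, was at 4.12 FPKM with ATRA plus SAHA and 2.29 with SAHA, beside 49.4 with ATRA and 50.8 with vehicle. Myc was at 13.1 FPKM with ATRA plus SAHA and 6.97 with SAHA, beside 26.5 with ATRA and 44.7 with vehicle. For each of these genes both libraries with SAHA were below both without it. Of 13 mesenchymal genes 1 was higher (Cdh11, 1.34) and 1 lower (S100a4), with a median of 0.20, and none of 5 epithelial genes passed the mark.

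Besides Ddit3 and Timp1, named genes that overlap other rows include Ifrd1, Gadd45a, Mat2a, Txnip, Csn3, Egfl7, Ppp1r10, Snhg1, Snhg12, Smc4 and Pold2. Part of their reads may belong to a neighbour. Some calls rest on values close to the thresholds. Just inside the 2-fold mark were Kif23 (3.01 FPKM with ATRA plus SAHA and 0.994 with SAHA), Abcc1 (7.49 and 3.24) and Zswim1 (5.89 and 2.44) on the higher side, and just outside were Pdcd2l (5.84 and 2.42), Reep4 (9.95 and 4.48) and Med27 (7.16 and 3.08). On the lower side H3f3a (26.4 and 54.2), Ppp1r10 (0.974 and 2.99) and Gcnt1 (2.17 and 5.43) were just inside, and Cisd3 (6.29 and 13.5), Fam134c (1.15 and 3.25) and Hexim1 (1.79 and 4.52) just outside. For the filter of 1 FPKM, Tctn1, Kdm6a and Brms1l were just counted, and Pik3r5, Zbtb1 and Znrf1 just missed it.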

How the data were processed

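Total RNA from 4 cultures was sequenced after depletion of ribosomal RNA, per the labels' protocols. The submitters' processing notes name Trimmomatic 0.32 for trimming, Cuffdiff for expression and the build mm10. They name no aligner, annotation or strand setting. The deposited table gives FPKM in 1 column per library, per the file headers. An exact 0 can be a failed estimate. Differences were taken as log2(FPKM + 1), with a call at 1 or more, over genes averaging 1 FPKM or more, and no test was run. Whether differences of this size exceed the spread between cultures was not tested. For depth, the step at which FPKM times length recurred in transcripts of 1000 to 4000 bases was taken as 1 fragment; this gives no interval.

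The text names the 15 highest and 15 lowest genes whose higher library reached 5 FPKM (without predicted genes, joined names, pseudogenes and small RNAs), up to 6 members of each of 44 lists, set targets of each compound and 3 genes on each side of each threshold. These genes and lists were chosen with earlier results of these data known, and 2 lists were added after the values were seen. Positions are from GENCODE M21. Overlapping loci concerned 1622 of the counted genes, whose reads could not be pulled apart. Symbols that had become dates (27 rows) were restored from the descriptions. Alternatives were a pseudocount of 0.1, no filter, a mean of at least 5 FPKM, centring, rescaling without the 10 highest rows of any library (12 rows in all) and leaving out small RNAs. Python 3.11.15, pandas 2.3.3 and numpy 2.4.6 were used.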

Additional observations from a re-analysis of the deposited data

Results flagged for a closer look

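For 6 genes the pair with SAHA and the pair without it differed in opposite directions, each past the 2-fold mark. The difference between the pairs was not tested, since each group had 1 library. Ddit3 stood at 4.64 with ATRA plus SAHA against SAHA and at -1.50 with ATRA against vehicle, a difference of 6.13 on the log2 scale. The same difference was 4.06 for Ppp1r15a, the GADD34 gene (1.97 and -2.10), and 2.26 for Atf3 (1.12 and -1.14). Nfil3, a leucine zipper factor gene, differed by 2.45 (1.14 and -1.31), and Tsc22d3, a glucocorticoid-induced gene, by 2.37 (1.03 and -1.34). Csn3, a casein gene, went the opposite way with -4.23: it was at 1.68 FPKM with ATRA plus SAHA and 8.39 with SAHA, and at 8.46 with ATRA and 0.768 with vehicle. For Ppp1r15a, Nfil3 and Tsc22d3 the level with ATRA plus SAHA lay below that of vehicle, at 12, 9.70 and 6.19 FPKM against 27.0, 10.9 and 18.6. After centring, and under the rescaling, Atf3, Nfil3 and Tsc22d3 were no longer past the mark with ATRA plus SAHA against SAHA (0.979, 0.996 and 0.883, and 0.59, 0.59 and 0.52).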

How the results depend on the processing

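No paired analysis was possible because each group had 1 library. The counts of 262 higher and 80 lower genes became 490 and 185 with a pseudocount of 0.1, 165 and 40 with a mean of at least 5 FPKM, and 126 and 397 under the rescaling without the 10 highest rows. They were 276 and 87 with no filter, 191 and 111 after centring, and 211 and 59 without small RNAs. The median difference of genes higher with ATRA alone was 0.15 and ranged from -0.17 (rescaling) to 0.46 (a mean of at least 5 FPKM), always below the 2-fold mark. No named gene or list median past the 2-fold mark changed sign under these settings. Medians below the mark did, as for ER chaperones (0.28, and -0.27 under the rescaling) and mitochondrial synthetases (0.15, and -1.57 over the 2 left with a mean of at least 5 FPKM). Of 276 named genes, 22 lost the 2-fold mark under the rescaling and 14 after centring, and 32 and 8 gained it. The list medians that lost it were mitosis genes after centring (0.90) and rescaling (0.62) and S100 genes with no filter (-0.48). With 1 library per group, how far any of these differences exceeds the spread between cultures could not be measured.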

Other observations

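Among metabolic and housekeeping groups few genes passed the 2-fold mark with ATRA plus SAHA against SAHA. Cholesterol and fatty acid synthesis genes had a median log2 difference of -0.16 over 34 members, with Acly, which makes acetyl-CoA for lipid synthesis, at 13.6 FPKM with ATRA plus SAHA and 26.8 with SAHA. Glycolysis and hypoxia genes stood at -0.15 over 28 members, and the lactate exporter gene Slc16a3 was at 1.72 and 3.85 FPKM. Both groups lay below the all-gene median of 0.14. Proteasome subunits stood at 0.29 over 31 members, heat shock proteins at 0.24 over 32 and secretory pathway genes at 0.20 over 51, and all 3 medians were below 0 under the rescaling (-0.33, -0.35 and -0.40). None of the members of these 5 groups passed the mark as deposited. Under the rescaling 7 cholesterol and fatty acid genes (median -0.74), 3 glycolysis and hypoxia genes (median -0.61), 2 heat shock, 1 proteasome and 1 secretory gene were lower, and 0 were higher. Of 37 autophagy and lysosome genes 1 was higher: Atg12, a conjugation protein of autophagosome formation, was at 35.4 FPKM with ATRA plus SAHA and 14.4 with SAHA, beside 3.58 with ATRA and 3.68 with vehicle. None of 22 BCL2 family and caspase genes passed it (median 0.09); Bcl2l11, the BIM gene, was at 1.14 and 2.34 FPKM and Mcl1 at 6.78 and 10.8. Of 22 p53 targets 1 was higher, Gadd45a, with a median of 0.40.

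Immediate early genes, the first to respond to growth factors, were split. Of 32 counted members 2 were higher (Ifrd1 and Atf3) and 2 lower (Dusp2 and Nr4a1), with a median of -0.06. Dusp2, a MAP kinase phosphatase gene, was at 0.733 FPKM with ATRA plus SAHA and 4.15 with SAHA, beside 1.19 with ATRA and 0.956 with vehicle. None of 14 NF-kB and adhesion genes passed the mark (median 0.22). Of 5 bile duct genes 1 was lower (Spp1), of 2 endothelial genes 1 was lower (Egfl7; the list summed to 2.58 FPKM with ATRA plus SAHA and 7.03 with SAHA), and none of 4 hepatic stellate genes passed it. Small RNAs varied widely: 51 of 148 were higher and 21 lower, and 39 of the higher ones were listed at 0 with SAHA and 18 of the lower ones at 0 with ATRA plus SAHA.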
